A study of Mus musculus with 12 samples.

Results

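The genotype difference common to 2 layers of mouse epidermis was measured in 12 arrays, which are all 12 samples of the series. Of these, 6 came from bitransgenic mice and 6 from wild-type mice, and each genotype had 3 arrays of basal and 3 of suprabasal keratinocytes. The members were chosen by the group names in the sample titles, and genes on chromosomes X and Y were left out. All mice were of the FVB/N strain and were sampled on postnatal day 4. Primary skin keratinocytes were separated by flow cytometry, and total RNA was hybridised to MTA-1_0 arrays. The labels give the genotypes only as wild type and bitransgenic. The series title names progerin. The sources used here do not give the transgenes, the promoter that drives them or the marker that separated the layers, and they do not say whether an array came from 1 animal or several.

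Progerin is a truncated, permanently farnesylated form of lamin A that stays anchored in the nuclear membrane and causes Hutchinson-Gilford progeria. Lamins form the meshwork under the inner nuclear membrane, and SUN proteins in that membrane link it to the cytoskeleton. In the epidermis, basal keratinocytes divide on the basement membrane, and suprabasal cells leave the cell cycle and assemble keratins, envelope proteins and lipids into the barrier. Keratin 16, small proline-rich proteins and alarmins are known as genes that keratinocytes switch on when the epidermis is wounded or irritated.

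Each title carries a code that ends in the layer, and 5 of the 7 codes had an array in both layers. Values below are log2 signals, and within a group they follow a fixed order of codes: X667_06, X682_11 and X721_08 for wild type in both layers, X721_05, X667_05 and X722_07 for bitransgenic basal cells, and X721_05, X667_05 and X682_05 for bitransgenic suprabasal cells. Array medians lay between 5.28 and 5.46. A signal mark, the 95th percentile of the 5222 intronic normalization probe sets of an array, lay between 8.04 and 8.81, and 9.73% of clusters exceeded it on all 3 arrays of at least 1 group. Precision was limited by the number of arrays. Xist, transcribed from the inactive X chromosome, was between 10.69 and 11.08 on the 4 arrays of bitransgenic codes X667_05, X722_07 and X682_05, and between 4.09 and 4.28 on the other 8 arrays, which include all 6 wild-type ones. Genotype and this sex pattern therefore overlap in part, and differences with a term for the pattern are given beside the printed difference of a gene, or the printed median of a list, where the term moved it by over 1.5 times. Where all arrays of 1 side lay below the mark, a log2 difference describes summarised signals, and only the bound given is read as a fold.

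The checks of cell type gave high keratin signals in every group. Krt5 and Krt14, keratins of basal cells, lay between 12.20 and 13.54 and between 12.71 and 13.49 over the 12 arrays, and Krt1 and Krt10, keratins of suprabasal cells, between 12.25 and 13.44 and between 12.60 and 13.50, so these 4 keratins were bright in both layers. Itga6, an integrin subunit of basal cells, lay between 9.90 and 10.33 in basal and between 8.18 and 9.93 in suprabasal arrays. None of these 5 genes differed between genotypes at an adjusted p under 0.05. With the Xist term the difference of Itga6 went from -0.06 to -0.68 and that of Krt5 from -0.17 to -0.51, and the small differences of Krt1 and Krt10 changed sign. The probe set of mouse Lmna, the gene of lamin A, gave 10.86, 11.06 and 10.80 in the basal arrays of wild-type mice and 10.98, 10.93 and 10.71 in those of bitransgenic mice. The suprabasal arrays of wild-type mice gave 10.74, 10.84 and 10.55, and those of bitransgenic mice 10.78, 10.82 and 10.79. The genotypes overlapped for Lmna, and since the labels do not describe the transgenes this signal does not check the genotype labels. The 8 melanocyte markers had a mean log2 signal of 9.58, 11.04 and 10.50 in wild-type suprabasal arrays and of 11.32, 7.68 and 10.62 in bitransgenic ones, against 5.98 to 7.07 in basal arrays. The bitransgenic X667_05 suprabasal array thus stood below the other 5 suprabasal arrays in melanocyte transcripts. None of the 8 melanocyte markers differed in the same direction in both layers, and their part in other results was not tested. Immune, endothelial, Merkel cell, muscle and adipocyte, erythroid and glial markers had no member above the mark on all arrays of a group, and fibroblast markers had 2 of 11. In arrays of sorted populations, fewer cells of a type and less RNA per cell cannot be told apart.

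The arrays were set against their labels by a placement that was chosen after genotype differences had been seen. Each code was left out in turn, the 500 clusters of smallest p were taken from the fit without it, and the left-out arrays were placed between the genotype means of the remaining arrays of their layer. Wild-type code X682_11 lay nearer to the bitransgenic mean on 96.8% of the 500 clusters in its basal array and on 92% in its suprabasal array. The other 4 wild-type arrays lay nearer to the bitransgenic mean on 36% to 53.6% of theirs, and the 6 bitransgenic arrays on 18.2% to 66.4%. The lowest of these was the suprabasal array of bitransgenic X721_05. X682_11 stayed in the fits and in the wild-type means used to place the other codes. Their percentages and positions are therefore not on the same scale as those of X682_11. On a scale where 0 is the mean of the other wild-type arrays and 1 the bitransgenic mean, the median position of X682_11 was 1.09 in basal and 0.91 in suprabasal cells. The next highest wild-type position was 0.57, in the suprabasal array of X721_08. The suprabasal array of bitransgenic X721_05 was at 0.025, by the wild-type mean, while its basal array was at 0.62 and the other 4 bitransgenic arrays were at 0.57 to 0.73. X682_11 is labelled wild type, and it was kept as such in the fit of 12 arrays. The fit without it is given, as a value, a bound or a call, where a gene described below passed there or a printed difference or list median moved by over 1.5 times. Its Xist signals of 4.14 and 4.18 were like those of the other wild-type arrays.

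**Figure D1:**
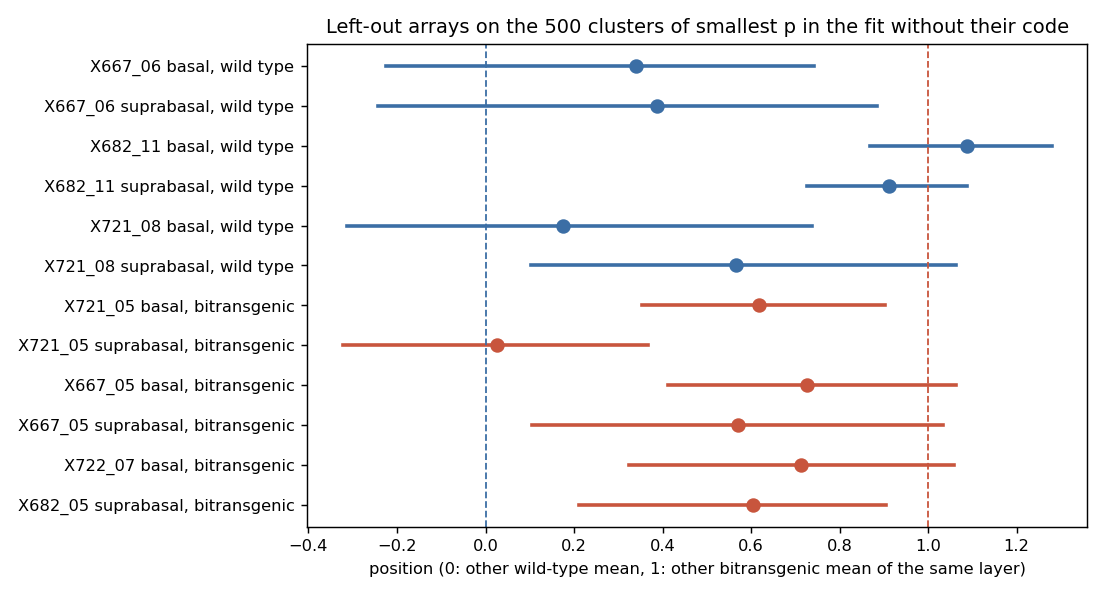
Median position (point) and interquartile range (line) of each left-out array over the 500 clusters of smallest p in the fit without its code, with wild-type labels in blue and bitransgenic labels in red. The 2 arrays of X682_11 have medians of 1.09 and 0.91, and the other 4 wild-type arrays have medians from 0.18 to 0.57. X682_11 is part of the fits and wild-type means used for all other codes, so the scales differ.

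With all 12 arrays, 0 of 61999 clusters outside chromosomes X and Y passed an adjusted p of 0.05 in either direction (0% higher and 0% lower; limma with layer as a covariate, code as a random block and Benjamini-Hochberg adjustment over all 65956 clusters). The smallest adjusted p was 0.415. At an unadjusted p under 0.05, 2103 clusters (3.39%) were higher and 2486 (4.01%) lower in bitransgenic cells, and 4550 of these 4589 had the same direction in both layers. A small p over both layers selects for the same direction in each, and the layers share codes. This agreement is therefore no independent support. Over all 61999 clusters, 28669 (46.2%) had the same direction in both layers. The Student test of the series design on 6 against 6 arrays also passed 0 clusters after adjustment, with 3933 at an unadjusted p under 0.05. In the authors' deposited table the comparison of all bitransgenic with all wild-type arrays holds 0 clusters with q under 0.05 and 3849 with p under 0.05, and its smallest q is 0.394. Each layer by itself gave 0 calls in the limma fit, with 8026 unadjusted in basal and 3263 in suprabasal cells, and the genotype by layer interaction gave 0 calls with 7627 unadjusted. The median difference over all these clusters was 0.01, or 0.04 in basal and -0.03 in suprabasal cells.

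Without the 2 arrays of X682_11, 165 clusters (0.266%) passed as higher and 531 (0.856%) as lower in bitransgenic cells. All 696 had the same direction in both layers, which a call over both layers selects for. Leaving out any of the other codes, or only 1 of the 2 X682_11 arrays, gave 0 calls. With X682_11 kept, 0 of these 696 clusters passed, so its distance from the other wild-type arrays was in part fixed by this choice. Its basal array lay nearer to the bitransgenic mean on 669 of them and its suprabasal array on 630, which is therefore no independent support. The fit without X682_11 compares 2 wild-type with 4 bitransgenic codes, and it stands out among the codes left out in turn by its result. Its adjusted p-values therefore describe those 10 arrays and are not a test that was chosen independently of them. It has no term for the Xist pattern: the wild-type arrays left are all low in Xist, and 4 of the 6 bitransgenic arrays are high. Values with the Xist term come from the fit of 12 arrays, as does the correlation of 0.08 used for arrays of a code. In what follows, passed without X682_11 refers to that fit.

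Of the genes above the mark, predicted models left out, the 10 of smallest p on the higher side began with Sprr1b and included Krt16 and Fabp5. Sprr1b, a small proline-rich protein that is crosslinked into the cornified envelope (chromosome 3), had signals of 7.03, 7.83 and 7.17 against 8.27, 8.13 and 7.90 in basal cells (wild type first, here and below), and of 7.69, 8.43 and 8.27 against 8.85, 8.92 and 8.78 in suprabasal cells. The genotypes did not overlap in either layer, and X682_11 was the highest wild-type array in both. The difference was 0.73 ± 0.15 (log2, SE; adjusted p = 0.581 by limma), and 0.93 without X682_11 (adjusted p = 0.00928), where all 4 wild-type arrays were below the mark and no bound on the fold exceeded 1. Krt16, the type I keratin induced on wounding (chromosome 11), gave 11.25, 11.61 and 12.03 against 12.36, 12.26 and 12.22 in basal cells, and 11.46, 12.13 and 12.00 against 12.19, 12.56 and 12.46 in suprabasal cells. Every bitransgenic array exceeded every wild-type array for Krt16, across layers as well as within them. Its difference was 0.60 ± 0.14 (adjusted p = 0.581 by limma) and 0.66 without X682_11 (adjusted p = 0.0874), so Krt16 passed neither test.

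Fabp5, the epidermal fatty acid-binding protein (chromosome 3), had signals of 8.27, 8.97 and 8.43 against 9.23, 9.64 and 9.25 in basal cells, and of 8.94, 9.56 and 9.47 against 9.62, 9.87 and 9.75 in suprabasal cells. The genotypes did not overlap in either layer, with a difference of 0.62 ± 0.15, and Fabp5 passed without X682_11 (0.78, adjusted p = 0.0396 by limma). The cluster named Fabp5l2 differed by 0.86 ± 0.18 and passed without X682_11 (1.07, adjusted p = 0.0177 by limma). As a near-identical copy it can share signal with Fabp5, and the 2 are not independent. Of all 61999 clusters, 179 (0.289%) had no overlap in either layer with bitransgenic arrays higher and 205 (0.331%) with them lower. With 3 arrays in a group some clusters separate in this way by chance. Genes of smallest p are also selected for it, so non-overlap is no separate support for them. Of the other genes of smallest p on the higher side, Casp1 is described further on and 5 differed by 0.32 to 0.38: Plk3, a stress-responsive kinase, Creld2, a gene induced by stress of the endoplasmic reticulum, Hspbp1, a partner of Hsp70, Psmc1, a proteasome ATPase, and Cyb5b, a cytochrome b5 of the mitochondrial outer membrane. Hspbp1, Psmc1 and Cyb5b passed without X682_11, and Plk3 and Creld2 did not. The Psmc1 difference was 0.21 with a term for the Xist pattern.

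**Figure D2:**
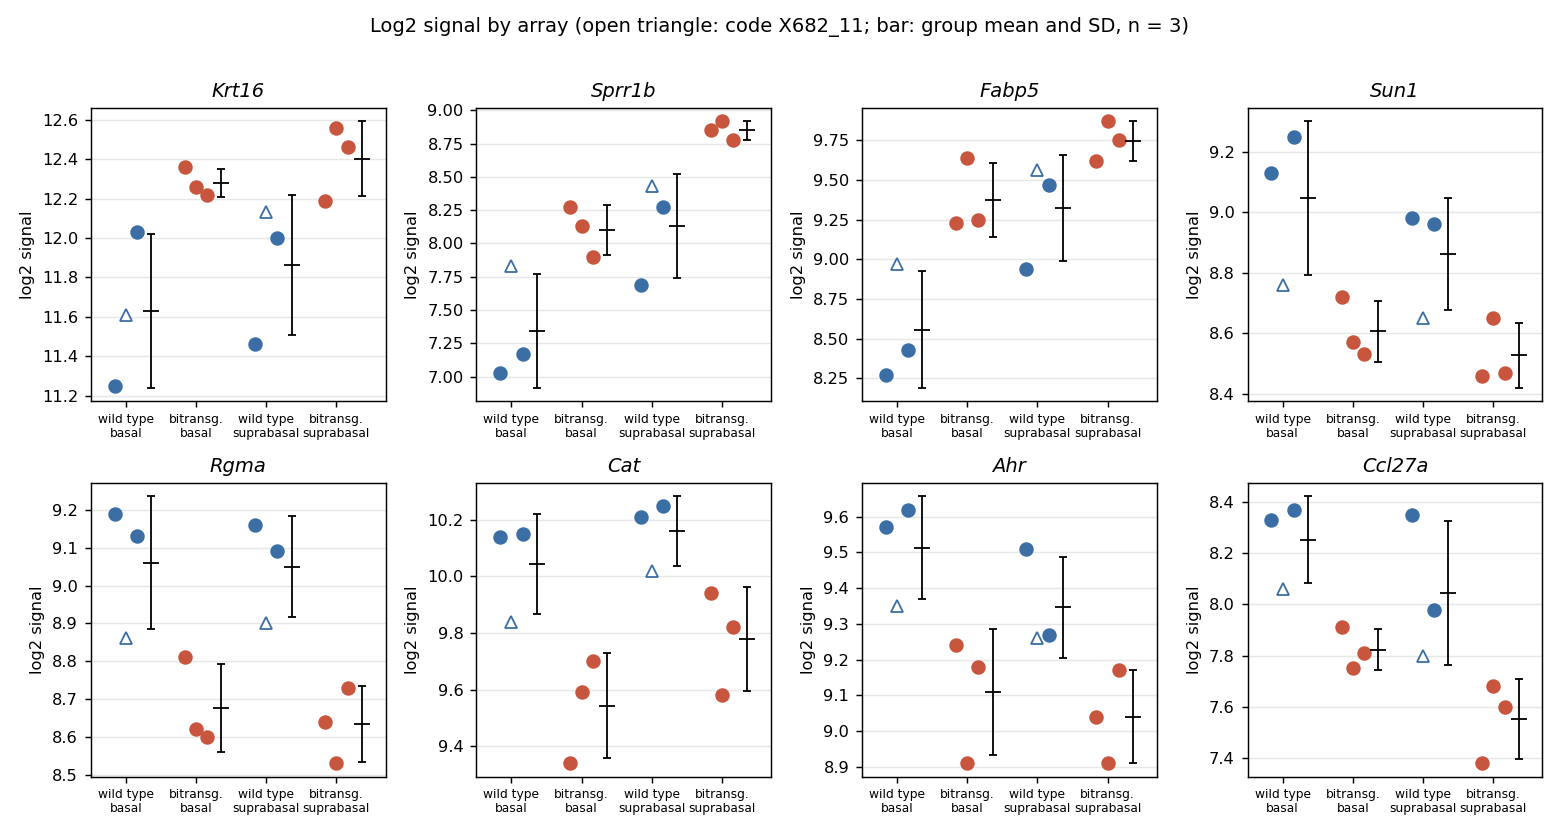
Log2 signal (vertical axis) of 8 genes on the 12 arrays, by genotype and layer, with X682_11 as open triangles and the mean and SD of each group of 3 beside the points. Krt16, Rgma and Ahr do not overlap between the 6 bitransgenic and the 6 wild-type arrays, and X682_11 lies on the bitransgenic side of its group for Sprr1b, Sun1 and Rgma.

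The promoter of Sprr1b is shown because the gene comes first by p among the higher named genes, and those of Dusp1 and Areg because they hold a full cAMP response element and were picked for it after the search. Each holds 250 bases before to 50 after the annotated start, from RefSeq on GRCm38.p6, and lies at chr3:92438730-92439029 (minus strand), chr17:26508423-26508722 (minus strand) and chr5:91139349-91139648 (plus strand). Capitals mark the AP-1 motif TGANTCA in Sprr1b and the cAMP response element TGACGTCA in Dusp1 and Areg.
Sprr1b: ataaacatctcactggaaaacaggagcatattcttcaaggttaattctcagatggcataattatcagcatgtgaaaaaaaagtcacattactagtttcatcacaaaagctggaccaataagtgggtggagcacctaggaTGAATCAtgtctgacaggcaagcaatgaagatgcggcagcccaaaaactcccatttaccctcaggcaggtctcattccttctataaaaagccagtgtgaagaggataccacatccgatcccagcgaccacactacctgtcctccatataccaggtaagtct
Dusp1: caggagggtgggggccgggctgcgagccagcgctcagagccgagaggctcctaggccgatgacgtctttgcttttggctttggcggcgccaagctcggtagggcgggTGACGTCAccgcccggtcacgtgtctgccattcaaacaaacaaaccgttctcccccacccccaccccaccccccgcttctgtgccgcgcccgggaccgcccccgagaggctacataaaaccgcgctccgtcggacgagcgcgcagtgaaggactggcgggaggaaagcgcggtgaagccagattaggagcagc
Areg: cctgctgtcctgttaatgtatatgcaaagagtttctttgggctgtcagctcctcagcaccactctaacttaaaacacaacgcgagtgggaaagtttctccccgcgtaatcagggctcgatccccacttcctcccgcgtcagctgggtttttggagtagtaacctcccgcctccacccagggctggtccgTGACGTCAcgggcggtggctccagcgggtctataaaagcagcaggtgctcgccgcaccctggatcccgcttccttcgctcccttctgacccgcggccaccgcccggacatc
The motifs begin 111, 143 and 61 bases before the start. Searched on both strands, TGANTCA occurs in 7.81% and TGACGTCA in 1.79% of all 32851 promoters of the table, and the 2 motifs do not overlap each other in these promoters. Of the 108 named or listed genes looked up, 78 matched with 100 promoters, of which 8 held TGANTCA and 3 held TGACGTCA. Among the 8 immediate-early genes with a searched promoter, TGACGTCA was found in that of Dusp1 alone, and neither motif was found for Fos or Fosb. Of the EGF family ligands, Areg held it and Btc and Epgn held neither. A match describes the letters of this window and is not evidence that a factor binds there.

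The smallest p-values on the lower side belonged to genes with small and even differences. Rgma, a membrane-anchored co-receptor for bone morphogenetic proteins (chromosome 7), had signals of 9.19, 8.86 and 9.13 against 8.81, 8.62 and 8.60 in basal cells, and of 9.16, 8.90 and 9.09 against 8.64, 8.53 and 8.73 in suprabasal cells. All 6 bitransgenic arrays lay below all 6 wild-type arrays. The difference was -0.40 ± 0.07 (adjusted p = 0.581 by limma) and -0.49 without X682_11 (adjusted p = 0.00977). Zdhhc1, a protein palmitoyltransferase (-0.30 ± 0.06), Galt, which converts galactose phosphate (-0.43 ± 0.09), and Ahr, the aryl hydrocarbon receptor (-0.35 ± 0.08), were likewise lower on all 6 bitransgenic arrays. Of these 3, Zdhhc1 and Galt passed without X682_11, and Ahr gave an adjusted p of 0.0603.

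Cat, the peroxisomal enzyme that breaks down hydrogen peroxide (chromosome 2), had 10.14, 9.84 and 10.15 against 9.34, 9.59 and 9.70 in basal cells and 10.21, 10.02 and 10.25 against 9.94, 9.58 and 9.82 in suprabasal cells. The genotypes did not overlap in either layer. The difference of -0.44 ± 0.09 did not pass (adjusted p = 0.581 by limma), and without X682_11 it was -0.52 with an adjusted p of 0.0341. Adgra3, an adhesion receptor (-0.42 ± 0.09), Pik3r2, a regulatory subunit of phosphoinositide 3-kinase (-0.48 ± 0.10), Naxd, which repairs hydrated NADH (-0.26 ± 0.06), Ephb6, an Eph receptor that lacks kinase activity (-0.33 ± 0.07), and Tnrc18 (-0.28 ± 0.06) completed the 10 genes of smallest p. Each of these 5 except Adgra3, at an adjusted p of 0.0952, passed without X682_11. In Adgra3 the X682_11 arrays, at 9.43 and 9.84, sat among the other wild-type arrays.

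**Figure D3:**
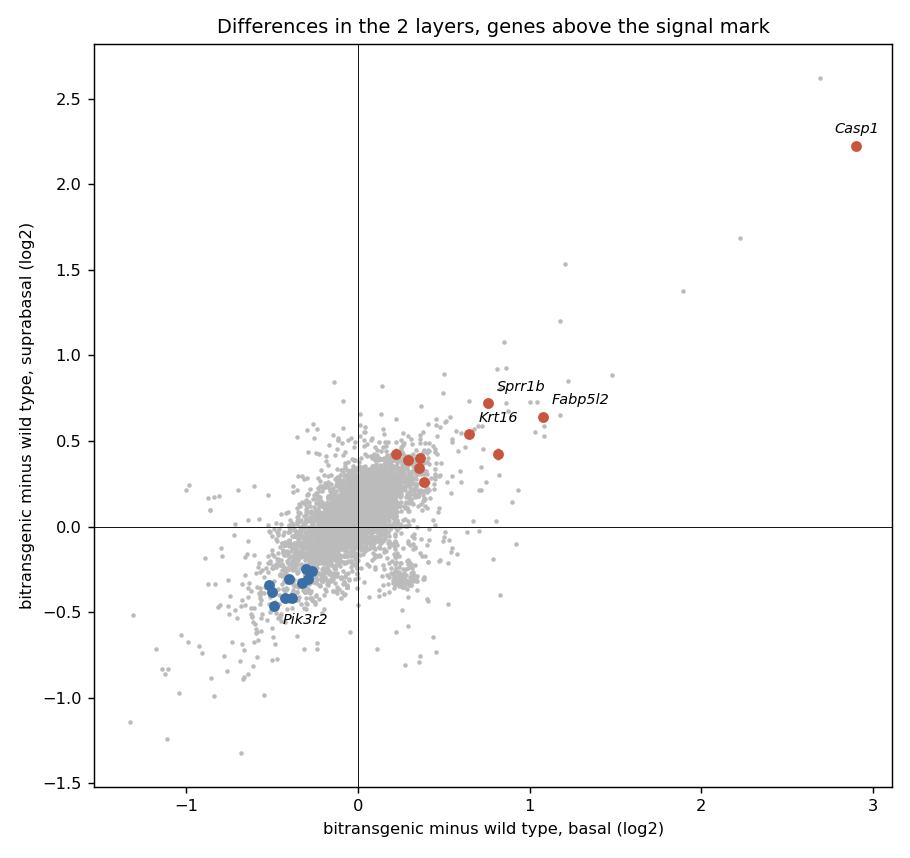
Bitransgenic minus wild-type difference (log2) in basal (horizontal axis) and suprabasal cells (vertical axis) for the 5172 genes above the mark in a group (grey), with the 10 genes of smallest p on the higher side in red and on the lower side in blue. Casp1 lies at 2.90 and 2.23, far from the other named genes, and the lower genes lie between -0.52 and -0.25 in both layers.

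In the genes with the widest separation between arrays, X682_11 lay with the bitransgenic codes. The genes named here were chosen after their values were seen, as those of greatest size each way among genes above the mark in a group, predicted models left out, that passed without X682_11. Genes below the mark in every group, such as Cyp2f2 (-3.74) and Casp4 (2.83), are outside this choice. Armc1, a protein of the mitochondrial outer membrane (chromosome 3), had signals of 7.99 and 8.03 in the wild-type basal arrays of X667_06 and X721_08, and of 12.17 in that of X682_11. The bitransgenic basal arrays were at 12.06, 12.18 and 12.02. In suprabasal cells Armc1 was at 7.95 and 8.18 in X667_06 and X721_08, at 11.97 in X682_11, and at 11.75, 12.16 and 12.06 in bitransgenic arrays. The difference over all arrays was 2.66 ± 0.78 (adjusted p = 0.581 by limma), and without X682_11 it was 4.00 with an adjusted p of 6.3e-08. The 4 wild-type arrays left were below the mark, so Armc1 was at least 10.955-fold higher there. Bitransgenic X721_05 has a low Xist signal, as X682_11 has, and was at 12.06 and 11.75. What sets this division of the arrays was not tested.

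Casp1, the protease that activates interleukin-1 beta (chromosome 9), divided the arrays in the same way. Its signals were 4.48, 8.77 and 4.57 against 8.82, 9.17 and 8.54 in basal cells and 5.46, 7.85 and 5.31 against 7.76, 9.25 and 8.29 in suprabasal cells. Only X682_11 among the wild-type codes overlapped the bitransgenic range for Casp1. The difference was 2.56 ± 0.71 over all arrays, and Casp1 passed without X682_11 (adjusted p = 0.0019 by limma). The 4 wild-type arrays left were below the mark, so the bound was at least 1.038-fold higher. Gstm5, a glutathione transferase (chromosome 3), gave 7.65, 11.01 and 7.57 against 11.05, 11.06 and 10.80 in basal cells and 8.19, 10.59 and 8.38 against 10.33, 10.91 and 10.98 in suprabasal cells. Without X682_11 Gstm5 was at least 4.82-fold higher (adjusted p = 0.000517 by limma), with the caution that glutathione transferase genes are similar in sequence. Ccl20, a chemokine that draws cells bearing the receptor Ccr6, was at least 2.266-fold higher (adjusted p = 0.017 by limma). With a term for the Xist pattern, the Ccl20 difference over all arrays went from 1.64 to 0.86.

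Of the 501 genes that passed without X682_11 (1.46% of 34311), 189 were above the mark in a group, 70 higher and 119 lower. These 189 were 3.65% of the 5172 genes above the mark. For 4 further higher genes the wild-type arrays left were all below the mark. St3gal1, a sialyltransferase, was at least 1.236-fold, Rab31, a vesicle GTPase, at least 1.46-fold and Capn2, a calpain subunit, at least 1.59-fold higher. Akr1b8, an aldo-keto reductase, had no bound above 1. Chit1, a chitinase, and Abca12, the lipid transporter of lamellar granules, differed by 1.24 and 1.20 without X682_11, and by 0.79 and 0.80 over all arrays. For Akr1b8, Rab31 and Capn2 a term for the Xist pattern lowered the difference over all arrays to 0.48, 0.52 and 0.33, from 1.37, 1.20 and 0.90. Among the lower ones, the cluster named H19_1 differed by -1.92 without X682_11 and by -1.18 over all arrays. H1f2, a linker histone, differed by -1.50 and -0.99, the latter going to -0.58 with the Xist term. Npl, a sialic acid lyase, differed by -1.37 without X682_11 and by -0.68 over all arrays, where its unadjusted p was 0.126 in the limma fit. Lrp4 (-1.20 and -0.80) and Il34, a ligand that maintains Langerhans cells (-1.19 and -0.75), came last by size of the 10 lower genes so chosen. Krt15, Fos, Hspa1a, Fosb and Dusp1, also among these 10, are described below.

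**Figure D4:**
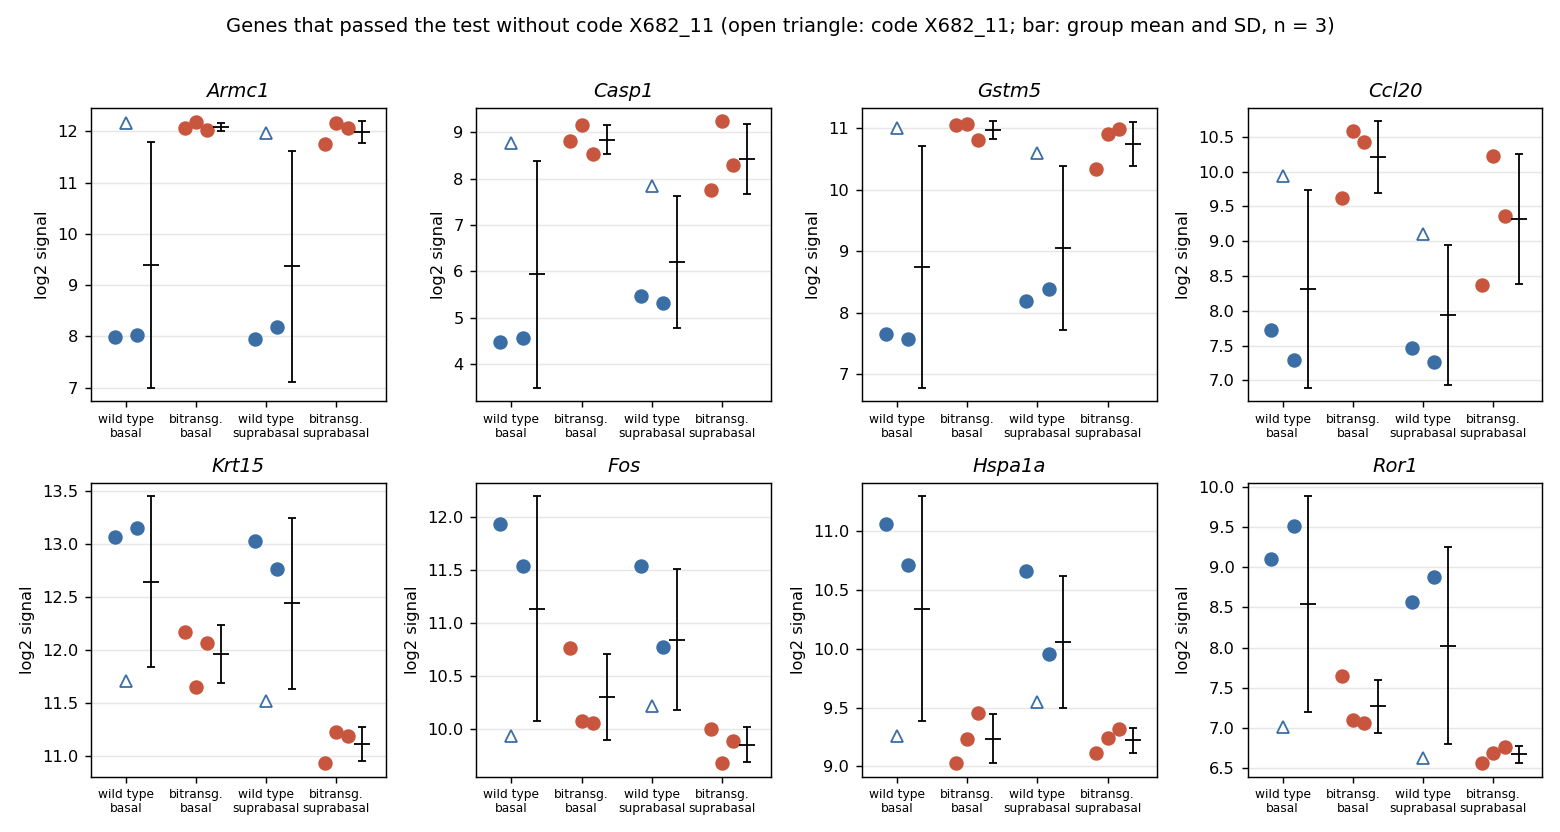
Log2 signal (vertical axis) on the 12 arrays for 8 genes that passed the test without X682_11, drawn as open triangles, with the mean and SD of each group of 3 beside the points. For Armc1, Casp1, Gstm5 and Ccl20 the X682_11 arrays lie with the bitransgenic arrays, above both other wild-type codes, and for Krt15, Fos, Hspa1a and Ror1 below them.

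The gene lists were read by counts and medians, beside a background of 34311 named genes with a median difference of 0.01, of which 1516 (4.42%) were higher and 1451 (4.23%) lower at an unadjusted p under 0.05. In both layers 8608 (25.1%) were higher and 7551 (22%) lower, and without X682_11 149 (0.434%) passed as higher and 352 (1.03%) as lower. Among the 5172 genes above the mark in a group, 3.65% passed without X682_11, so lists of bright genes have a higher background. No member of any of the 30 lists passed the test over all genes with 12 arrays. The immediate-early list, transcription factors and phosphatases induced within minutes of a stimulus, had the lowest median of the 30 lists in the fit of 12 arrays, -0.51 over 15 genes. Of these, 8 were lower at an unadjusted p under 0.05 and 0 higher, 13 had a negative difference in both layers, and 7 passed as lower without X682_11, where the median was -0.70. With a term for the Xist pattern the median was -0.30, no longer the lowest, since that of the basal keratinocyte genes was -0.49. Fos, the partner of Jun in AP-1, had signals of 11.94, 9.94 and 11.54 against 10.77, 10.08 and 10.06 in basal cells and 11.54, 10.22 and 10.78 against 10, 9.68 and 9.89 in suprabasal cells. The X682_11 array lay below all 3 bitransgenic arrays in basal cells and just above them in suprabasal cells. The Fos difference was -0.92 ± 0.32 (adjusted p = 0.588 by limma) and -1.37 without X682_11 (adjusted p = 0.0125), and with the Xist term it was -0.61. Egr1, a zinc finger factor, differed by -0.60 ± 0.21, Fosb by -0.77 ± 0.31 and Dusp1, a phosphatase that switches off MAP kinases, by -0.84 ± 0.29. All 3 passed without X682_11, at -0.91, -1.23 and -1.21, and a term for the Xist pattern brought them to -0.36, -0.43 and -0.41. The mean signal of the 15 genes was 10.13, 9.14 and 9.94 against 9.52, 9.11 and 9.22 in basal cells and 9.98, 9.24 and 9.59 against 9.24, 8.95 and 9.12 in suprabasal cells, so that the 4 arrays of X667_06 and X721_08 were the 4 highest.

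The list of stress keratins and alarmins had the highest median in the fit of 12 arrays, 0.32 over 19 genes. Of these, 6 were higher at an unadjusted p under 0.05 and 0 lower, and 13 were higher in both layers. Without X682_11 4 passed as higher and the median was 0.63, whereas a term for the Xist pattern gave a median of -0.09, which was not the highest. S100a9, a subunit of calprotectin, had signals of 6.23, 9.81 and 6.21 against 7.81, 10.42 and 10.34 in basal cells and of 6.65, 10.08 and 6.95 against 8.02, 10.71 and 10.64 in suprabasal cells. X682_11 and the Xist-high bitransgenic codes were high, X721_05 was between, and X667_06 and X721_08 were low. The S100a9 difference of 2.02 ± 0.83 became 0.26 with the Xist term. Without X682_11 S100a9 was at least 2.10-fold higher (adjusted p = 0.0477 by limma). Defb14, a beta-defensin, kept a difference of 0.90 with that term, from 0.88 ± 0.21 without it, but was below the mark on every array. Tslp, a cytokine that alerts immune cells, differed by 1.40 ± 0.44, or 0.86 with the Xist term, and was above the mark on 2 arrays. Defb14 and Tslp passed without X682_11 (adjusted p = 0.0469 and 0.0306 by limma). Krt17, a keratin of hair follicles and wounded epidermis, differed by 0.30 ± 0.14, or 0.195 with the Xist term, and passed without X682_11 (0.49, adjusted p = 0.0413 by limma). The Krt17 difference was 0.42 in basal and 0.17 in suprabasal cells.

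The list of EGF and TGF-beta family genes, 25 ligands, receptors, transducers and targets, had 6 members higher and 12 lower in both layers and a median of -0.06, which was -0.03 without X682_11 and -0.04 with the Xist term. At an unadjusted p under 0.05, 4 were higher and 4 lower, and without X682_11 1 passed as higher and 2 as lower, among them Bmp2, a bone morphogenetic protein. The 4 higher ones were Areg, Ereg, Epgn and Btc, and the 4 lower ones Id1, Id2, Id3 and Erbb2, a receptor of the EGF family (-0.19). Areg, amphiregulin, an autocrine growth factor of keratinocytes, had 7.36, 8.04 and 7.10 against 7.87, 8.56 and 8.57 in basal cells and 7.33, 7.69 and 7.23 against 7.89, 8.70 and 8.08 in suprabasal cells. In basal cells X682_11 overlapped the bitransgenic arrays, and in suprabasal cells the genotypes did not overlap. The Areg difference was 0.82 ± 0.19 (adjusted p = 0.581 by limma), 1.02 without X682_11 (adjusted p = 0.0332) and 0.42 with the Xist term. Areg was below the mark on all wild-type arrays, and no bound on its fold exceeded 1. The related ligands Ereg, Epgn and Btc differed by 0.49, 0.87 and 0.31, and with the Xist term by 0.155, 0.17 and 0.26. Ereg and Btc were below the mark on every array. Id1, Id2 and Id3, inhibitors of helix-loop-helix factors that respond to bone morphogenetic proteins, differed by -0.51, -0.40 and -0.68, and of these Id3 passed without X682_11 (-1.10). The Id2 difference was 0.04 with the Xist term.

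Wnt genes act through ligands, their carrier, receptors and intracellular transducers, and in the epidermis they maintain basal cells and hair follicles. Of 28 ligands, receptors and carriers, 9 were lower and 0 higher at an unadjusted p under 0.05, 16 were lower and 4 higher in both layers, and the median was -0.16. Without X682_11, 4 passed as lower and 0 as higher. Among ligands, Wnt4 had 9.97, 9.44 and 10.09 against 9.44, 9.29 and 9.10 in basal cells and 9.57, 8.77 and 9.24 against 8.32, 9.07 and 8.65 in suprabasal cells. X682_11 met or overlapped the bitransgenic range for Wnt4 in both layers, the difference was -0.54 ± 0.17 (adjusted p = 0.581 by limma), and without X682_11 it was -0.74 (adjusted p = 0.0453). Wnt16 differed by -0.92 ± 0.33 and passed without X682_11 (at least 1.06-fold lower, adjusted p = 0.00526 by limma), as did Wnt7a, which was below the mark on every array. Wls, the carrier that brings Wnt proteins to the cell surface, differed by -0.33 ± 0.13, with -0.49 in basal and -0.17 in suprabasal cells. Among receptors, Ror1 gave 9.10, 7.01 and 9.51 against 7.65, 7.10 and 7.06 in basal cells and 8.57, 6.62 and 8.88 against 6.56, 6.69 and 6.76 in suprabasal cells. Both X682_11 arrays lay within or below the bitransgenic values for Ror1, and the bitransgenic arrays were all below the mark. Without X682_11, Ror1 was at least 1.64-fold lower (adjusted p = 0.000456 by limma). Lrp5, a co-receptor, differed by -0.21 ± 0.08. Of 26 inhibitors, transducers and targets, 3 were lower and 0 higher at an unadjusted p under 0.05, namely Lef1 (-0.62, or -0.97 without X682_11), Myc (-0.36, or -0.54 with the Xist term) and Znrf3 (-0.22), the median was -0.03, and 0 passed without X682_11. That median was -0.02 without X682_11 and -0.0025 with the Xist term. Lef1 was below the mark on every array.

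In the nuclear envelope, Sun1 had the smallest p of 19 genes of lamins and the inner nuclear membrane. SUN1 protein spans the inner membrane, and it is known to accumulate in progeria cells. Its transcript (chromosome 5) had signals of 9.13, 8.76 and 9.25 against 8.72, 8.57 and 8.53 in basal cells and of 8.98, 8.65 and 8.96 against 8.46, 8.65 and 8.47 in suprabasal cells. The genotypes did not overlap in basal cells, and in suprabasal cells X682_11 and the bitransgenic X667_05 were both at 8.65. The difference was -0.39 ± 0.09 (adjusted p = 0.581 by limma), and without X682_11 it was -0.52 (adjusted p = 0.0111). The list had 1 member lower and 1 higher at an unadjusted p under 0.05, the latter Tor1a, a chaperone of the nuclear envelope, at 0.13 ± 0.06. Tor1a was below the mark on all wild-type arrays, and no bound on its fold exceeded 1. Lmna differed by 0.02 ± 0.07, by 0.07 with the Xist term and by 0.095 without X682_11. Of 23 nucleoporins, 11 were higher and 1 lower in both layers. The nucleoporin median was 0.12 over both layers, with -0.003 in basal and 0.22 in suprabasal cells. With the Xist term it was -0.07, and without X682_11 it was 0.19. Of the nucleoporins 1, Nup107 (0.39 ± 0.17, or 0.05 with the Xist term), had an unadjusted p under 0.05.

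The medians of the cell cycle lists differed between layers and with the Xist term. The 24 DNA replication genes had a median of 0.17, with 13 higher and 1 lower in both layers, and the 26 cell division genes a median of 0.12. Neither list had a member at an unadjusted p under 0.05, and with the Xist term the medians were -0.05 and -0.17. Without X682_11 they were 0.31 and 0.21, and 0 members passed. The cell division median was -0.13 in basal and 0.36 in suprabasal cells, and the DNA replication median 0.005 in basal and 0.31 in suprabasal cells. Of 22 genes of spindle orientation and polarity, 12 were lower and 2 higher in both layers with a median of -0.06. Numa1, which anchors spindle poles to the cell cortex, had 9.77, 9.80 and 9.83 against 9.59, 9.61 and 9.54 in basal cells and 9.72, 9.49 and 9.50 against 9.50, 9.41 and 9.46 in suprabasal cells. The genotypes did not overlap in basal cells and overlapped in suprabasal cells, with a difference of -0.17 ± 0.05 (adjusted p = 0.581 by limma), which did not pass without X682_11. Of 16 Notch genes, 10 were lower and 1 higher in both layers, the median was -0.13, and Hes1, a direct target of Notch signalling, differed by -0.45 ± 0.20, or -0.26 with the Xist term and -0.71 without X682_11. Of 22 p53 targets and senescence genes, 2 were lower and 0 higher at an unadjusted p under 0.05, Igfbp3 (-0.96 ± 0.40) and Plk2 (-0.24 ± 0.10, or -0.36 without X682_11). Without X682_11 Igfbp3 passed, at least 1.02-fold lower (adjusted p = 0.0262 by limma). Of 23 genes of DNA damage response and repair, 1 was lower, Prkdc (-0.21 ± 0.09). The Prkdc difference was -0.38 in basal and -0.04 in suprabasal cells, and Prkdc was below the mark on every array.

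**Figure D5:**
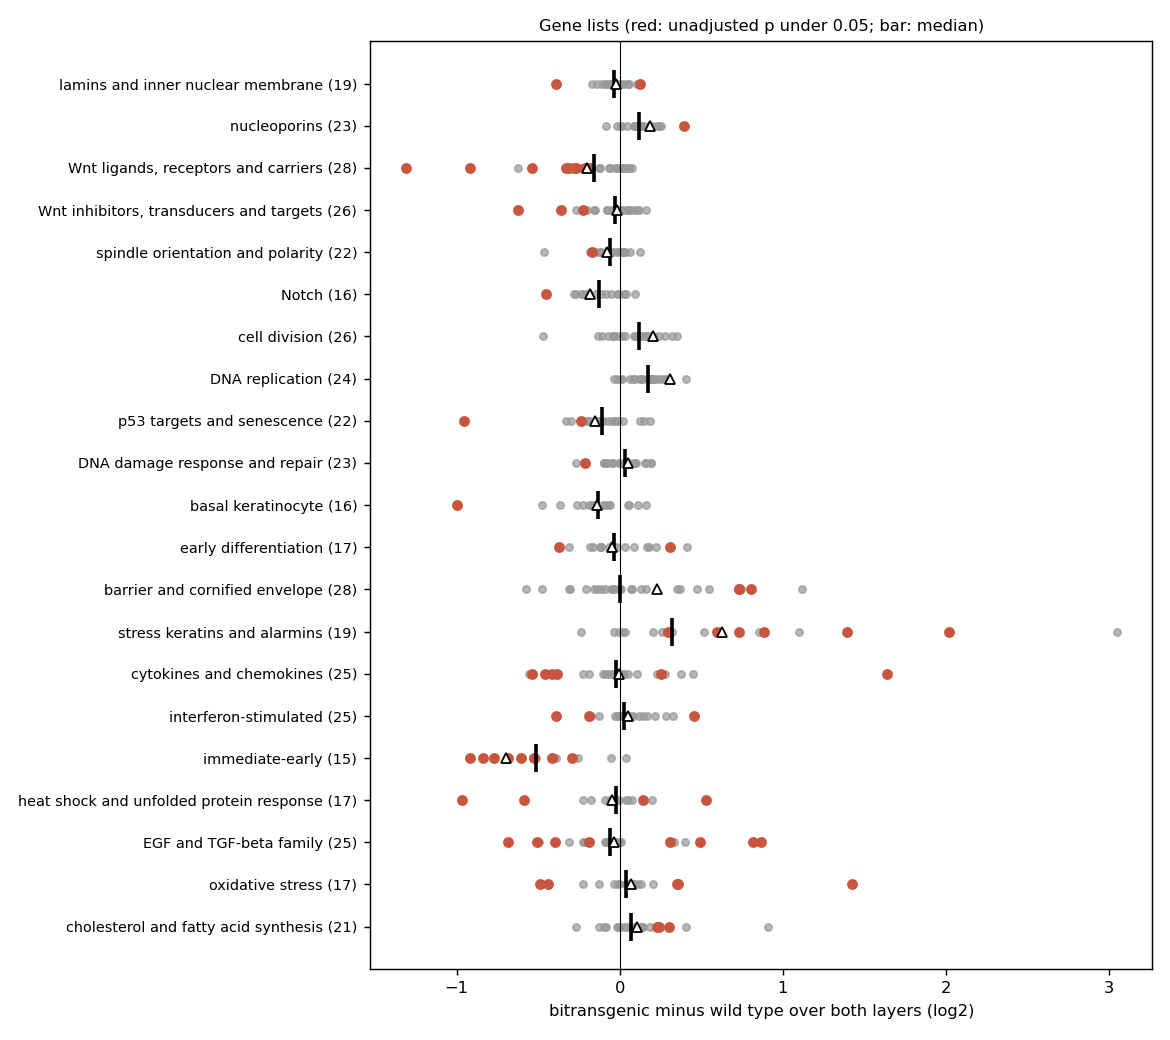
Bitransgenic minus wild-type difference over both layers (log2, horizontal axis) of the genes of 21 lists, with genes of unadjusted p under 0.05 in red, the median over 12 arrays as a bar and the median without X682_11 as a triangle. By the median over 12 arrays the immediate-early genes lie lowest, at -0.51, and the stress keratins and alarmins highest, at 0.32.

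Among epidermal genes, Krt15, a keratin of basal and bulge cells, had the smallest p of 16 basal keratinocyte genes. Its signals were 13.06, 11.71 and 13.15 against 12.17, 11.65 and 12.06 in basal cells and 13.03, 11.52 and 12.76 against 10.93, 11.22 and 11.19 in suprabasal cells. X682_11 overlapped the bitransgenic arrays in basal cells and stood just above them in suprabasal cells. The difference was -1.0 ± 0.30 (adjusted p = 0.581 by limma) and -1.46 without X682_11 (adjusted p = 0.00448). The other members of this list did not pass without X682_11, and 11 of the 16 were lower in both layers. The list median was -0.13 and went to -0.49 with the Xist term. Of 28 barrier genes, 3 were higher and 0 lower at an unadjusted p under 0.05, Sprr1b, Abca12 (0.80 ± 0.30) and Tgm1, the transglutaminase that crosslinks the envelope (0.73 ± 0.24, or 0.34 with the Xist term). The barrier median was 0.003, or 0.23 without X682_11 and -0.02 with the Xist term. Of 17 early differentiation genes, Klf4, a factor needed for barrier formation, differed by -0.37 ± 0.12, or -0.19 with the Xist term, and passed without X682_11 (adjusted p = 0.0223 by limma), and Sbsn, suprabasin, differed by 0.31 ± 0.12. Of 20 hair follicle genes, 1 was higher at an unadjusted p under 0.05, Krt17.

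Of 17 genes of heat shock and the unfolded protein response, 2 were higher and 2 lower at an unadjusted p under 0.05, and without X682_11 0 passed as higher and 2 as lower, Hspa1a and the cochaperone gene Dnajb1 (-0.95, against -0.59 ± 0.24 over all arrays, or -0.375 with the Xist term). Hspa1a, an inducible Hsp70 with a near-identical neighbour gene, had 11.06, 9.26 and 10.71 against 9.03, 9.23 and 9.45 in basal cells and 10.66, 9.55 and 9.96 against 9.11, 9.24 and 9.32 in suprabasal cells. X682_11 overlapped the bitransgenic arrays in basal cells. The Hspa1a difference was -0.97 ± 0.27 (adjusted p = 0.581 by limma) and -1.36 without X682_11 (adjusted p = 0.00928), while Hsph1, an Hsp110 chaperone of the same list, differed by 0.53 ± 0.15. Of 17 oxidative stress genes, 3 were higher and 2 lower at an unadjusted p under 0.05. Nfe2l2, the master factor of the antioxidant response, differed by 0.36 ± 0.11, and Slc7a11, the cystine importer, by 1.42 ± 0.49, values that became 0.17 and 0.28 with the Xist term. Slc7a11 was below the mark on all wild-type arrays, and no bound on its fold exceeded 1. Without X682_11, 2 members passed as higher and 2 as lower, Nfe2l2 among the higher (adjusted p = 0.0461 by limma). For Nfe2l2 all wild-type arrays left were below the mark, and no bound on the fold exceeded 1. Of 25 cytokines and chemokines, 2 were higher and 4 lower at an unadjusted p under 0.05. Ccl27a, a chemokine made by keratinocytes that recruits skin-homing T cells, had 8.33, 8.06 and 8.37 against 7.91, 7.75 and 7.81 in basal cells and 8.35, 7.80 and 7.98 against 7.38, 7.68 and 7.60 in suprabasal cells, with no overlap in either layer and a difference of -0.46 ± 0.10 (adjusted p = 0.581 by limma). Ccl27a passed without X682_11 (-0.57, adjusted p = 0.0221) and was below the mark on every array. Cxcl14, another constitutive skin chemokine, differed by -0.54 ± 0.15, with -0.89 in basal and -0.18 in suprabasal cells. Of 25 interferon-stimulated genes, 1 was higher and 2 lower at an unadjusted p under 0.05, and without X682_11 4 passed as higher (Ifit1, Ifih1, Ddx58 and Bst2) and 1 as lower (Irf9). These 5 genes were below the mark on every array. Irf9, a subunit of the factor that drives interferon responses, differed by -0.39 ± 0.08 with no overlap in either layer and by -0.48 without X682_11 (adjusted p = 0.017 by limma), and the 4 higher genes differed by 0.26 to 0.75 there, against 0.14 to 0.46 over all arrays. Of 21 genes of cholesterol and fatty acid synthesis, 3 were higher and 0 lower, Sqle (0.30), Mvd (0.24) and Lss (0.23). The Mvd difference was 0.42 in basal and 0.06 in suprabasal cells. Mvd was below the mark on all wild-type arrays, and Lss on every array.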

How the data were processed

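Arrays were grouped by the titles. The deposited log2 signals were made by the authors with Affymetrix Expression Console and RMA on mm10, per the submitters' processing notes. RMA corrects background, normalizes quantiles and summarizes probes, so a change common to most transcripts would not be seen. The authors' deposited table, whose log2 values are identical, adds signed fold changes of unlogged signal, p-values and q-values, per the file headers. Control and normalization sets (6732 of 72688, 9.26%) were removed, leaving 65956 clusters, 3957 of them on X or Y. A single symbol came with 30638 clusters, the deposited file named 6955 more, 26187 had none, and 2176 with several symbols stayed unnamed. A gene was represented by its brightest cluster.

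limma 3.58.1 (R 4.3.3, with package data.table at version 1.17.8) was fitted to 12 arrays with genotype and layer, code as a random block (duplicateCorrelation, 0.08) and Benjamini-Hochberg adjustment, called at 0.05. SE values are those of this fit. Per-layer values and the interaction came from a fit of 4 group means. The labels do not say that arrays came from separate animals, so p-values measure the spread between these samples. Deviations of arrays of the same code correlated across layers at 0.14 to 0.53, against a median of -0.09 for other codes, but the ranges overlapped. The basal array of X667_05 gave 0.33 with the suprabasal array of X682_11, against 0.24 with its own. The suprabasal array of X721_05 gave 0.28 with the basal array of X721_08, against 0.14 with its own. The fit was tested on simulated data. Named genes were the 10 of smallest p each way above the mark with the same direction in both layers, excluding predicted, microRNA, small nucleolar, receptor-segment, olfactory and ribosomal models; the 2 of smallest p, or those called, in each list; and the checks Lmna, Krt5, Krt14, Krt1, Krt10 and Itga6. Other list members are named for an unadjusted p under 0.05. Of the genes these rules select, the text describes those its results turn on and counts the rest with their lists; a gene that they select is not reported here. Members, lists and rules were chosen with earlier results of these data known. Alternatives covered blocks, scaling, dim clusters, moderation, array weights, the Xist pattern, the design's Student test, and each array and code left out. The placement of left-out codes, and the genes and list counts without X682_11, were chosen after seeing the data. Figures were drawn with Python 3.11.15 (pandas 2.3.3, numpy 2.4.6, matplotlib 3.10.9).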

Additional observations from a re-analysis of the deposited data

How the results depend on the processing

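The counts of called clusters were 0 in the joint fit under all alternatives run except one: without both arrays of X682_11 there were 165 higher, 531 lower and 696 of the same direction, with a smallest adjusted p of 6.297e-08. Over the codes and arrays left out the counts ranged from 0 to 165, from 0 to 531 and from 0 to 696; the cause was not tested beyond the placement of X682_11 given above. Without the code as a replicate block 0 clusters were called and 5096 had an unadjusted p under 0.05; with the leading number of each code as a fixed block these were 0 and 10513, against 4589 in the reported fit, and the smallest adjusted p was 0.05405. With array weights 8084 had an unadjusted p under 0.05, with a term for the Xist pattern 3649, of which 2028 were higher and 1621 lower. Pairing by code changed no call. Of the 75 named genes, 29 passed only without X682_11. Directions turned for 7 genes, none of which passed. With the Xist term these were Kif23 (-0.2167), Xrcc6 (-0.0367), Krt1 (0.0917) and Krt10 (0.085), with cyclic loess Lmna (-0.0043), and with 1 value per code (0.0004) and array weights (0.0919) Itga6. Over the codes and arrays left out the differences ranged from -0.009 to 0.5179 for Kif23, -0.0422 to 0.0953 for Lmna, -0.1132 to 0.0066 for Krt14, -0.403 to 0.097 for Krt1, -0.3342 to 0.0158 for Krt10 and -0.2292 to 0.2446 for Itga6. The calls of each layer and of the interaction stayed at 0 under the alternatives run for them. For a gene below the mark on all arrays of 1 side, the signal gives only a bound.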
